A study of Mus musculus with 4 samples.

Results

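The barcodes described here are droplets from E14.5 mouse hindlimbs that combined fibrillar collagen transcripts with Sp7, the zinc-finger transcription factor that osteoblasts need in order to form. Membership was chosen by measured UMIs. A barcode was a member when it had at least 3000 unique molecular identifiers (UMIs), at most 10% of them mitochondrial, at least 2 Sp7 UMIs and fewer than 3 UMIs of Gdf5, a signal of the joint interzone, and when its UMIs of Col1a1, Col1a2 and Col3a1 were no fewer than those of the cartilage genes Acan, Col9a1, Col9a2 and Col9a3. This kept 124 of 18955 barcodes in 4 libraries, of which 41 came from tdT+ replicate 1, 7 from tdT- replicate 1, 54 from tdT+ replicate 2 and 22 from tdT- replicate 2. Of the 3640 barcodes within the UMI and mitochondrial limits, 1806 others lay on the collagen side and are called other connective barcodes below. A second comparison group held the 101 Sp7-positive barcodes on the cartilage side of the same limit.

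Gli1CreER/CreER females had been mated to males with Col2a1-rtTA, TigreTRE-p21/TRE-p21 and R26LSL-tdT/LSL-tdT. Pan-Cart-p21MOE embryos inherited Col2a1-rtTA and so could express p21 (Cdkn1a), an inhibitor of the cell cycle, in Col2a1-expressing cartilage, whereas control embryos lacked Col2a1-rtTA but carried the other alleles. All dams received doxycycline (1 mg/ml in water, and in food) from E12.5 and tamoxifen (120 µg/g by gavage) at E13.5, so that cells expressing Gli1 at that time, and their descendants, could carry the tdT reporter. Sorted tdT+ and tdT- cells were loaded as separate 10x libraries, and each library mixed male Pan-Cart-p21MOE with female control cells (collection 1, 2 embryos each) or female Pan-Cart-p21MOE with male control cells (collection 2, for which the sources differ on whether 1 or more Pan-Cart-p21MOE embryos were pooled). Condition was therefore read from Xist and 4 Y-linked genes in each barcode, which named 66 members as Pan-Cart-p21MOE and 42 as control. The p21 transgene answers to a cartilage promoter, and connective cells such as these are not its intended site.

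In limb bones, perichondrial cells around the cartilage model commit to the osteoblast lineage under Runx2 and then Sp7. Committed cells raise alkaline phosphatase first and later secrete a mineralizing matrix, with Ibsp and Ifitm5 among the genes that come on with maturation and Bglap and Dmp1 later still. Prehypertrophic chondrocytes express Sp7 too, which is why the cartilage-side barcodes form a useful contrast. Hedgehog, BMP and parathyroid hormone-related signals from and to the cartilage meet in this layer.

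Members were deeper than the other connective barcodes, and the limit of 2 Sp7 UMIs favours deep barcodes. Their UMI counts ranged from 3168 to 113252 with a median of 30623.5, against 19490.5 in the other connective barcodes and 57467 in the cartilage-side group. Median collagen UMIs were 260.5 in the members and 94 in the other connective barcodes. Median cartilage-gene UMIs were 18 and 11, and reached 448 in the cartilage-side group. At least 2 UMIs from both sexes, a sign of 2 cells in a droplet, were present in 10 of 124 members (8.06%), in 6.81% of other connective barcodes and in 20.8% of the cartilage-side group. The libraries shared 40 barcode sequences in all, none of them a member's.

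Sp7, Gdf5 and the 7 collagen and cartilage genes fixed the membership and are given as a description only. Members held 477 Sp7 UMIs, 113 per 1000000 UMIs, with a median of 3 and a highest value of 26 per barcode. Of the members, 55 had exactly 2 Sp7 UMIs. Just inside this limit, at 2 Sp7 UMIs, Runx2 stood at 1272 per 1000000 UMIs and Alpl at 283. Just outside it, 162 barcodes with 1 Sp7 UMI had 765 and 116, and 1642 barcodes with none had 264 and 35.4. The later markers did not all follow. Ifitm5, Smpd3 and Ibsp stood at 15.85, 8.532 and 3.047 just inside and at 7.564, 17.65 and 3.896 just outside. The 43 members with 3 or 4 Sp7 UMIs had 22.73, 30.99 and 5.51. The 26 members with 5 or more had 424, 369.2 and 1594, with Ibsp concentrated in single barcodes, as given below. One barcode met every other condition but had 3 or more Gdf5 UMIs, and 8 members had collagen UMIs under 2 times their cartilage-gene UMIs.

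The label osteoprogenitor was checked against its markers Sp7, Ibsp, Ifitm5 and Smpd3. Ifitm5, a membrane protein of mineralizing osteoblasts, gave a UMI in 44 of 124 members (35.5%, exact 95% interval 27.1 to 44.6%), against 7.14% of other connective barcodes. Smpd3, a sphingomyelinase needed for bone mineralization, gave one in 25.0% against 10.0%. Ibsp, which encodes bone sialoprotein, gave one in 13.7% against 5.09%. In 18 immune barcodes, those with at least 5 UMIs of Ptprc, Tyrobp, Fcer1g and Csf1r together, which should lack all 3, the shares were 22.2%, 27.8% and 16.7% in the same order at a median of 47740 UMIs. Thinned to 3000 UMIs per barcode, the members gave 16.1% for Ifitm5, 14.52% for Smpd3 and 5.65% for Ibsp, and the immune barcodes 11.1%, 5.56% and 5.56%. At equal depth, 18 immune barcodes are too few to say whether the Ibsp, Ifitm5 and Smpd3 shares of the members differ from theirs. By contrast, Runx2 was found in 99.2% of members and Alpl in 96.0%, and Alpl in 55.6% of thinned members against 11.1% of thinned other connective barcodes and 0 of 18 immune ones. Runx2 was found in 84.7% of thinned members against 38.9% of thinned other connective barcodes and 16.7% of thinned immune ones (72.2% unthinned). As the 3 later markers were found together in few, the members are called Sp7-positive barcodes below.

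Ibsp was concentrated in single barcodes. Of its 1787 UMIs in members, 1364 (76.3%) lay in 1 Pan-Cart-p21MOE barcode of tdT+ replicate 2, and 272 of the 275 in tdT+ replicate 1 lay in 1 control barcode. Ifitm5 was spread more widely, with 121 of 531 UMIs in its highest barcode, and Smpd3 had 74 of 470. Alpl had 39 of 1238 UMIs in its highest barcode.

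Promoter sequence is shown for 4 genes that were higher in these barcodes, so that the early pair Runx2 and Alpl can be set beside the later pair Ibsp and Ifitm5. Each run is the 250 bases before the transcription start site from RefSeq on build GRCm38.p6, 5′ to 3′ on the gene's strand. Letters searched for on both strands were TGTGGT, bound by Runx factors, GGGCGG, bound by Sp factors, and CCAAT, and capitals mark each match. Of 32851 promoter entries of this length, 14.0% held TGTGGT, 32.7% GGGCGG and 33.8% CCAAT. Alpl has 2 listed starts and the one at the 5′ end is shown, while the 250 bases before the other start held no match. The entries lie at chr17:44814628-44814877 on the minus strand for Runx2, chr4:137796385-137796634 on the minus strand for Alpl, chr5:104299037-104299286 on the plus strand for Ibsp and chr7:140950244-140950493 on the minus strand for Ifitm5.
Runx2: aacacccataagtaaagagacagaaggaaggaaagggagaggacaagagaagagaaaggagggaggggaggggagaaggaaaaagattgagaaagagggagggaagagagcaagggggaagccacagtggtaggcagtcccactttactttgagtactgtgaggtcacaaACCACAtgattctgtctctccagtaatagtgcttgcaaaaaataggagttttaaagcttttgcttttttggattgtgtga
Alpl: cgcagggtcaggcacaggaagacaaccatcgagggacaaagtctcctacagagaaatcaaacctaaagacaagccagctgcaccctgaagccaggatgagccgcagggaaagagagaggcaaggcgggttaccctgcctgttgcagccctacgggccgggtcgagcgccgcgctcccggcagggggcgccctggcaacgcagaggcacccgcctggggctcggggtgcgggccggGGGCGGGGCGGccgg
Ibsp: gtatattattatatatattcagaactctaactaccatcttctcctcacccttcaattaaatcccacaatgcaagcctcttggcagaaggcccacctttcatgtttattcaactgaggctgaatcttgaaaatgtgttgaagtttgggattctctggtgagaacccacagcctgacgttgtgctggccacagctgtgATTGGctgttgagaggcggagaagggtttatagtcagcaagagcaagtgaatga
Ifitm5: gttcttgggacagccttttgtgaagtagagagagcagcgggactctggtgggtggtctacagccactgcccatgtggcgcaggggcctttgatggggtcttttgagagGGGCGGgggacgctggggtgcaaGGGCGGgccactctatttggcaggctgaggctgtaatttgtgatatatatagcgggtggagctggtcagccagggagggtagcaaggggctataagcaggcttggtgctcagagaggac
The Runx2 run holds 1 TGTGGT match, on the reverse strand from 80 to 75 bases before the start. The Ibsp run holds 1 CCAAT match on the reverse strand, while Ifitm5 and Alpl each hold 2 GGGCGG matches, which overlap each other in Alpl. These are matches of letters and were not tested for binding.

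To ask how Sp7-positive barcodes differed from the other connective barcodes, UMIs were summed over each of these groups in each library. The sums were compared with the library as a block. The other connective group was set by UMI counts and is not connective tissue only. It held 278 Myod1 UMIs in 37 barcodes and 205 Tyrobp UMIs in 22. Of the fixed lists, 6 of 13 osteoblast transcription factors and 4 of 10 mineralization genes were higher in the Sp7-positive barcodes, whereas 4 of 4 muscle, 3 of 4 endothelial, 3 of 7 tendon and 2 of 4 joint genes were lower. The muscle list had 16 UMIs in the members and the endothelial list 131, 74 of them of Pecam1. The muscle genes, and the endothelial genes other than Pecam1, could therefore hardly have come out higher. With edgeR's quasi-likelihood test at an adjusted p under 0.05, 382 genes were higher (2.94%) and 626 lower (4.82%), together 7.75% of the 12999 genes tested. Of these 1008 genes, 916 moved the same way in all 4 libraries and 721 had no overlap between the groups, against 14.2% of all genes tested for lack of overlap. A test with the library as a block favours genes of 1 direction, so the 916 are not separate support for the calls. Without tdT+ replicate 2 the count dropped to 376, and without tdT- replicate 2 to 602. Of the 77 called genes named below, 23 no longer passed without tdT+ replicate 2, of which Ibsp, Dlx3, Lcp2, Pth1r, Dusp6, Postn, Atf3, Myod1 and AI646519 passed without each of the others. Boc, Col5a1, Wif1, Ank, Col24a1, Bgn, Crtap, Pdgfra, Spp1, Tgfb2, Tnmd, Tnn, Osr2 and Atf4 were lost there and without at least 1 other library as well. The libraries are the replicates here, and as embryos were pooled the p-values measure the spread between libraries. The tdT+ and tdT- libraries of a replicate came from the same embryos, so the 4 libraries stand for 2 collections. The p-values here and in the cartilage-side comparison below may therefore be too small.

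**Figure D1:**
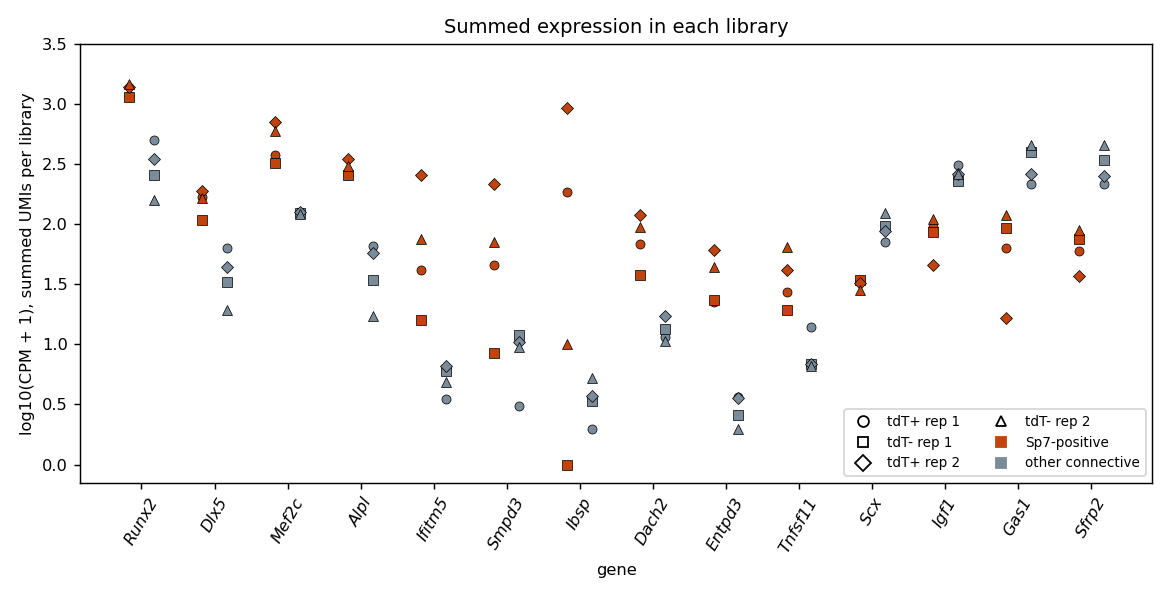
Summed expression of 14 genes in each library, as log10(CPM + 1) with CPM the counts per 1000000 summed UMIs, for Sp7-positive barcodes (orange) and other connective barcodes (grey), 1 symbol per library. Runx2, Dlx5, Mef2c, Alpl, Ifitm5, Dach2, Entpd3 and Tnfsf11 were higher in the Sp7-positive sums of all 4 libraries, Scx, Igf1, Gas1 and Sfrp2 lower in all 4, and Ibsp was at 0 in the 7 members of tdT- replicate 1.

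Among 13 osteoblast transcription factors tested, 6 were higher and 1 lower, with a median log2 fold change of 1.65 against -0.0023 over all genes tested. Values below are CPM (counts per 1000000 UMIs, TMM-scaled) in tdT+ replicate 1, tdT- replicate 1, tdT+ replicate 2 and tdT- replicate 2, in that order. Runx2 (chromosome 17), the first factor of the lineage, stood at 1171, 1137, 1392 and 1460 in the Sp7-positive sums and at 499, 256, 348 and 157 in the other connective sums. The groups did not overlap, and Runx2 was higher by 2.14 ± 0.23 (log2 fold change ± SE, adjusted p = 0.000234). Dlx5, a homeobox factor upstream of Sp7, stood at 167, 107, 189 and 164 against 61.8, 32.2, 43.1 and 18.4, which is 2.12 ± 0.23 higher (adjusted p = 0.000234). Dlx6, its genomic neighbour, and Runx3 were also higher in all 4 libraries, by 2.03 and 1.65. Dlx3 was higher by 3.57 on only 63 UMIs in the 2 groups together. Msx2 was at 0 UMIs in the members, and Vdr, the vitamin D receptor, at 2.21 ± 0.62, did not pass (adjusted p = 0.0523) but did under 4 of 11 alternatives. The factor that was lower, Atf4, differed by -0.37 and did not pass under 9 of 13 alternatives.

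Of the mineralization list, 4 of 10 tested genes were higher and none lower. Alpl (chromosome 4), tissue-nonspecific alkaline phosphatase, stood at 254, 256, 346 and 304 CPM against 65.3, 33.2, 56.8 and 16.4 and was higher by 2.88 ± 0.28 (adjusted p = 0.000123). The 4 Sp7-positive values lay close together, including the sum of 7 barcodes from tdT- replicate 1. Ifitm5 (chromosome 7) varied far more, at 40.9, 14.8, 254 and 74.4 against 2.53, 5.05, 5.66 and 3.83, and was higher by 4.49 ± 0.37 (adjusted p = 5.04e-05). Smpd3 (chromosome 8) stood at 44.9, 7.41, 216 and 70.5 against 2.04, 10.9, 9.57 and 8.44, with tdT- replicate 1 going the other way, and was higher by 3.62 ± 0.42 (adjusted p = 0.000363). Ank, a pyrophosphate transporter, was higher in all 4 libraries by 1.22 ± 0.22. Phex, an endopeptidase of maturing osteoblasts and osteocytes, had 49 UMIs in 24 members, or 11.7 per 1000000 UMIs against 16.6 in other connective barcodes.

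Of 14 bone matrix genes tested, 7 were higher and 1 lower, with a median log2 fold change of 0.32. Ibsp (chromosome 5) stood at 184, 0, 935 and 9.14 CPM against 0.974, 2.39, 2.72 and 4.25. Its fitted difference of 6.19 ± 0.96 (adjusted p = 0.00204) rests on the 2 barcodes described above, and without tdT+ replicate 2 it was 4.27 with an adjusted p of 0.0654, and by DESeq2 on all 4 libraries 4.17 with an adjusted p of 0.148. Omd, the keratan sulfate proteoglycan osteomodulin, was higher in all 4 libraries by 2.20 ± 0.31. Serpinh1, the collagen chaperone HSP47, was higher by 0.53 ± 0.07, from 1058 to 1182 CPM in the other connective sums to 1496 to 1755 in the members. Col24a1, Crtap and Bgn were higher by 0.61, 0.49 and 0.39. Spp1, which encodes osteopontin, was higher by 1.80 ± 0.50 (adjusted p = 0.0476), with 0 UMIs in the members of tdT- replicate 1, and did not pass under 7 of 13 alternatives. Col5a1, a fibrillar collagen, was lower in all 4 libraries (-0.50 ± 0.10). Late osteoblast and osteocyte genes were scarce, with 3 UMIs of Bglap and none of Bglap2, Bglap3, Dmp1, Mepe or Sost, and 0 of 124 barcodes allows, at a floor of 3 counts, a share of up to 2.42% with a UMI.

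**Figure D2:**
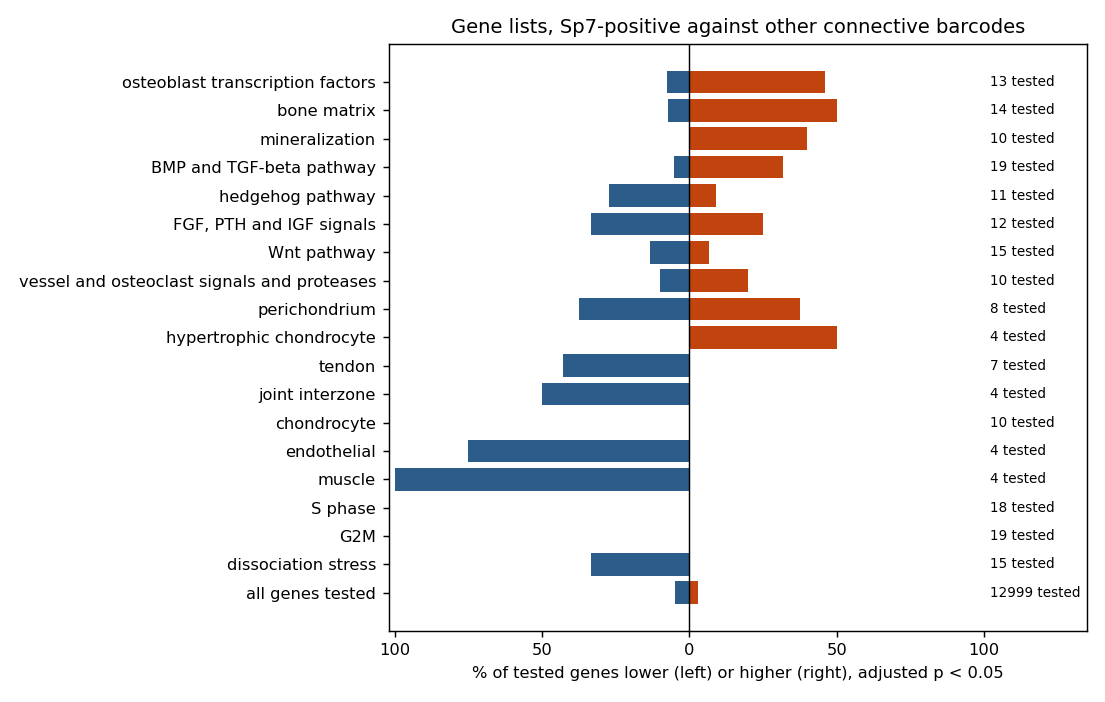
Share of each list's tested genes that were higher (right, orange) or lower (left, blue) in Sp7-positive than in other connective barcodes at an adjusted p under 0.05, with the number tested at the right. Osteoblast factors (6 of 13), bone matrix (7 of 14) and mineralization (4 of 10) lie mostly to the right, muscle (4 of 4), endothelial (3 of 4) and tendon (3 of 7) to the left, against 382 and 626 of all 12999 genes in the last row. The muscle list (16 UMIs in the members) could hardly lie to the right, nor could the endothelial list (131 UMIs) apart from Pecam1 (74 UMIs).

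Among signalling ligands and receptors, 6 of 19 BMP and TGF-beta genes were higher and 1 lower. Bmp2, a ligand that drives osteoblast commitment, stood at 50.3, 40.7, 52.2 and 61.3 CPM against 17.9, 26.3, 18.6 and 22.6 and was higher by 1.36 ± 0.17 (adjusted p = 0.000486). Bmp7, a related ligand, was higher by 1.35 and Tgfb2 by 0.57. The inhibitors Bambi and Smad6 were higher by 1.14 and 0.88. Smad6 no longer passed when thinned to 3000 UMIs (0.33, adjusted p = 0.906). The BMP target genes moved apart, with Id2 higher by 0.63 and Id1 lower (-0.96), each in all 4 libraries.

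In the hedgehog list 1 of 11 genes was higher and 3 lower. Ptch1, receptor and target of the pathway, stood at 380, 263, 537 and 410 CPM against 238, 146, 213 and 111 and was higher by 1.20 ± 0.17 (adjusted p = 0.000963). Gli1, the other common target and the driver of CreER in these embryos, stood at 17.4, 37.0, 32.3 and 28.7 against 25.8, 22.1, 25.5 and 13.3, and its difference of 0.32 ± 0.26 did not pass. The 3 coreceptors were lower, Gas1 at 62.4, 92.6, 15.5 and 119 against 215, 399, 261 and 452 (-2.37 ± 0.27, adjusted p = 0.000312), Cdon with a log2 fold change of -1.60 and Boc with -1.05. Gas1 did not overlap between the groups, and its lowest value was in tdT+ replicate 2, the library with most Ibsp.

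The FGF, PTH and IGF list had 3 of 12 genes higher and 4 lower. Fgfr2, an FGF receptor of osteoprogenitors, was higher in all 4 libraries by 0.89 ± 0.09 (adjusted p = 0.000119). Pth1r, the receptor for parathyroid hormone-related protein, was higher by 1.48 ± 0.26 but lay below the other connective sum in tdT- replicate 1, at 25.9 against 45.7 CPM. Igf2 was higher by 0.44 ± 0.07 and Igf1 lower, at 93.2, 85.2, 44.7 and 110 CPM against 308, 226, 259 and 263 (-1.77 ± 0.18, adjusted p = 0.00016). Igf2 did not pass with at least 3 Sp7 UMIs (0.26, edgeR adjusted p = 0.249) or thinned to 3000 UMIs (0.22, edgeR adjusted p = 0.524). The ligand Fgf9 and the feedback inhibitors of FGF signalling Spry2 and Dusp6 were lower, with log2 fold changes of -2.67, -2.10 and -1.35.

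In the Wnt list 1 of 15 genes was higher and 2 lower. Tcf7, a nuclear effector, was higher by 3.07 ± 0.44 in 3 of 4 libraries. The secreted antagonist Sfrp2 was lower in all 4, at 59.0, 74.1, 36.0 and 88.7 CPM against 216, 341, 249 and 458 (-2.31 ± 0.15, adjusted p = 1.79e-05). Wif1, another, was lower (-1.80 ± 0.40) in 3 of 4 libraries. Of 10 signals and proteases that act on vessels and osteoclasts, Tnfsf11 (RANKL, the osteoclast differentiation ligand) stood at 26.2, 18.5, 40.4 and 63.9 CPM against 13.0, 5.85, 5.87 and 5.60, which is 2.35 ± 0.37 higher (adjusted p = 0.00208). Mmp9, a gelatinase best known from osteoclasts, stood at 53.0, 40.7, 55.3 and 49.6 against 12.6, 33.5, 11.4 and 6.03 (2.06 ± 0.30 higher, adjusted p = 0.00136) and gave 217 UMIs in the members. Tnfsf11 no longer passed when thinned to 3000 UMIs (1.16, adjusted p = 0.556). Of the 7 osteoclast genes, 3 were tested and 1 was higher. Ctsk, the protease cathepsin K, had 273 UMIs in 82 members (64.9 per 1000000 UMIs against 59.7 in other connective barcodes), Acp5, a phosphatase of osteoclasts, had 24 UMIs in 22 members, and Ocstamp, Dcstamp and Atp6v0d2 were at 0. Cxcl12, a chemokine of stromal cells, was lower (-0.96 ± 0.15).

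Perichondrial genes divided, 3 of 8 higher and 3 lower. Thy1, Thbs2 and Prrx1 were higher in all 4 libraries by 1.95, 0.97 and 0.64, Prrx1 not with at least 3 Sp7 UMIs per member (0.33, adjusted p = 0.197), while Tnn, Postn and Pdgfra were lower, with log2 fold changes of -1.48, -0.64 and -0.44. Tendon genes had 3 of 7 lower and none higher, with Scx, the tendon progenitor factor, at 32.9, 33.3, 31.7 and 27.4 CPM against 70.4, 95.5, 87.6 and 124 (-1.52 ± 0.17, adjusted p = 0.000312), Tnmd at -1.77 and Kera at -5.37. Kera had a single UMI in all members. The joint factors Osr1 and Osr2 were lower (-2.60 and -1.25), Osr2 not under 7 of 13 alternatives. None of the 10 chondrocyte genes differed, Col2a1 standing at 769, 1481, 704 and 1027 CPM against 763, 1052, 734 and 883. Of the 880 chondrocyte-list UMIs in tdT- replicate 1, 747 (84.9%) lay in 1 barcode. In the hypertrophic list Mef2c, a factor shared by osteoblasts and hypertrophic chondrocytes, was higher in all 4 libraries, at 373, 322, 702 and 591 CPM against 126, 123, 126 and 121 (1.97 ± 0.16, adjusted p = 5.09e-05). Panx3, a channel protein of osteoblasts and prehypertrophic chondrocytes, was higher by 3.4 in 3 of 4 libraries, though not with DESeq2 (adjusted p = 0.113), while Col10a1 had 5 UMIs in the members.

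Markers of other cell types were counted list by list. Muscle genes were lower in 4 of 4 tested, with Myog at -4.54, Actc1 at -4.32 and the myogenic factor Myod1 at 0 UMIs, and the whole list summed to 16 UMIs in 124 members. Of its 8 genes, these 4 reached the count filter through the other connective barcodes, so they could hardly have come out higher. The count of 4 of 4 therefore adds nothing to the near absence of muscle UMIs. Without the library block Myog, Actc1 and Acta2 no longer passed (adjusted p = 0.112, 0.141 and 0.0603). Of 4 endothelial genes tested, 3 were lower, among them Emcn at -4.17. The endothelial list summed to 131 UMIs in the members, 74 of them of Pecam1. In the tests within the members, 0 of its 7 genes reached the count filter. Genes of this list other than Pecam1 could thus hardly have come out higher. Of 4 pericyte and smooth muscle genes 1 was lower, the actin Acta2 (-3.78 ± 0.37), and the list summed to 110 UMIs, 90 of them of Notch3. None of 4 Schwann and 4 erythroid genes passed, with 29 and 34 UMIs in the members. Immune genes summed to 23 UMIs over 8 genes, with Cd74 the most abundant at 10, Ptprc at 1 and Tyrobp and C1qa at 0, and 1 of 3 tested, Tyrobp, was lower. In other connective barcodes the 205 Tyrobp UMIs lay in 22 barcodes of the tdT- libraries (137 and 68), with 0 in both tdT+ libraries. Its bound of at least 6.85-fold lower fell to 2.34 without tdT- replicate 1. For members of the tdT+ libraries this call thus shows no difference. S phase (18 genes) and G2M (19 genes) lists had no gene past the test, with medians of -0.19 and -0.28. Of 15 genes that respond to tissue dissociation, 5 were lower and none higher, among them Socs3 at -0.94 and Atf3 at -1.29, and the part of handling in these differences was not tested.

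Genes that rose most, by the rule stated under processing, were Ifitm5, Entpd3, Lcp2, Alpl, Krt8, Gm47101, Dach2, Dpep1, Cemip and Exoc3l4. Lcp2, an adaptor of immune receptors, was higher by 3.02 ± 0.58 with 47 UMIs in 26 members. Dach2, a transcriptional cofactor, stood at 67.7, 37.0, 117 and 94.0 against 10.5, 12.497, 16.3 and 9.64 (2.78 ± 0.20, adjusted p = 2.86e-05). Entpd3, an ecto-nucleotidase, stood at 21.5, 22.2, 60.2 and 43.1 against 2.63, 1.60, 2.58 and 0.992 (4.24 ± 0.37, adjusted p = 6.59e-05). Krt8, a simple-epithelium keratin, was higher by 2.83 while Krt14 was at 0 UMIs. Gm47101, Dpep1, Cemip, a hyaluronan-degrading protein, and Exoc3l4 were higher by 2.81, 2.54, 2.53 and 2.53.

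The largest fitted falls belonged to genes with no UMI in the members, for which only a lower bound can be given. Against a floor of 3 UMIs over the whole group, Cfap44 was at least 14.3-fold lower, Ppargc1a, a coactivator of mitochondrial genes, at least 12-fold, and Ralyl at least 10.8-fold. The bounds for Gm28653, Brinp1, Kcnc2, Myod1 and AI646519 were 9.69, 9.49, 9.45, 9.29 and 7.85-fold. Each bound counts UMIs as if they were independent. In other connective barcodes the UMIs of Gm28653, Myod1, Ralyl and Kcnc2 lay in only 27, 37, 63 and 68 of 1806 barcodes. Those of Brinp1, AI646519, Ppargc1a and Cfap44 lay in 116, 132, 166 and 214. Where UMIs lie in so few barcodes, the true fold can be smaller than the bound, most of all for Gm28653 and Myod1. These 8 bounds depend on single libraries, and ranged from 4.004 (AI646519) to 8.56 without tdT+ replicate 2, from 4.04 (Ralyl) to 10.5 without tdT- replicate 2 and from 4.94 (AI646519) to 9.59 without tdT+ replicate 1. In all, 21 of the 626 lower genes were at 0 in the members.

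Members differed among themselves. Of 124, 67 had no UMI of Ibsp, Ifitm5 or Smpd3, 31 had 1 of these 3 genes, 17 had 2 and 9 had all 3, and 7 of these 9 were in tdT+ replicate 2. Across these 4 sets Sp7 stood at 87.2, 88.8, 129 and 317 per 1000000 UMIs and Mef2c at 328, 427, 855 and 1497. Runx2 was nearly level at 1343, 1089, 1388 and 1374. Alpl stood at 289, 271, 278 and 421. Aspn, a perichondrial proteoglycan gene, went down from 469 through 301 and 147 to 2.73, and Postn from 203 to 5.46 in the last set. Pdgfra, of the perichondrial list too, did not go down with them, at 98.7, 115.7, 116.8 and 103.8. Median UMIs per barcode rose over the same sets from 28130 to 44970, which favours finding more of the markers, and these values are a description without a test.

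**Figure D3:**
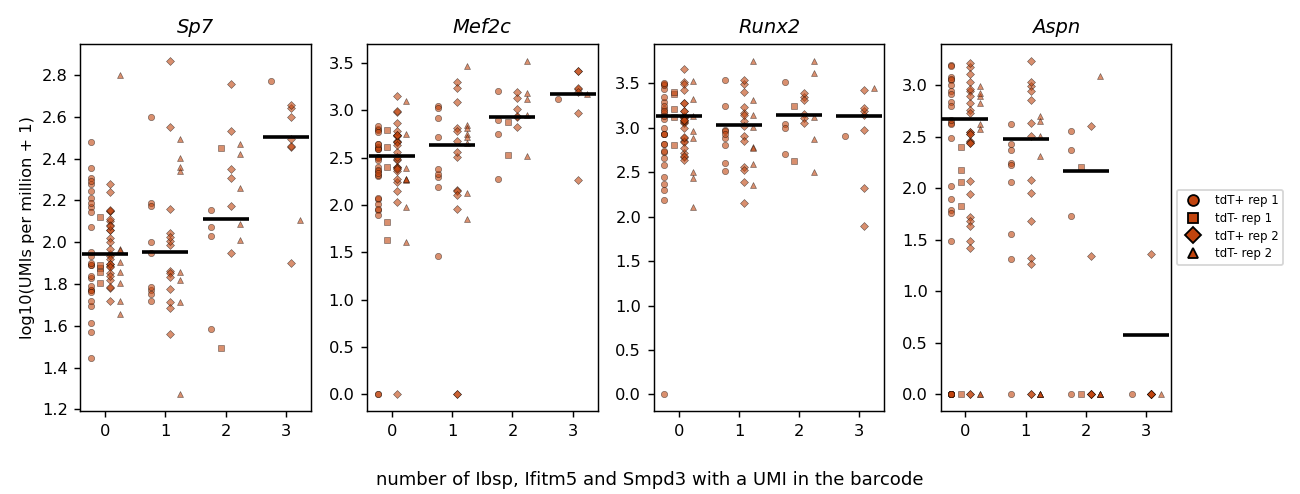
Each point is 1 of the 124 member barcodes (symbol by library), placed by how many of Ibsp, Ifitm5 and Smpd3 had a UMI, with log10(count per 1000000 UMIs + 1) of 4 genes on the y axes and black bars for the summed level of each set. Sp7 and Mef2c were highest in the 9 barcodes with all 3 genes, Runx2 was level, and Aspn was lowest there.

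Sp7-positive barcodes on the 2 sides of the collagen and cartilage limit were also set against each other. The comparison of the 124 connective members with the 101 cartilage-side barcodes, made the same way, called 1437 genes higher (13.6%) and 1433 lower (13.6%) in the connective members, together 27.3% of the 10531 tested. Of these 2870 genes, 2307 had no overlap between the groups, against 29.7% of all genes tested. All 10 chondrocyte genes tested were lower in the members, with a median log2 fold change of -3.63, and all 7 perichondrial genes tested were higher, with a median of 3.12. The median over all genes tested was 0.02. Both lists follow the side on which the rule put the barcodes.

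Within the osteoblast lists some genes separated the groups and others did not, against 27.3% called of all genes tested. Of 13 transcription factors 7 were higher and 3 lower in the members. Of 10 mineralization genes 2 were higher and 1 lower, and of 3 osteoprogenitor markers tested 0 passed. Alpl stood at 239, 244, 324 and 284 CPM in the connective members and at 9.48, 1.88, 27.0 and 18.6 on the cartilage side, a difference of 4.13 ± 0.29 (adjusted p = 7.74e-06). Runx2 was higher by 2.49 ± 0.17 and Dlx5 by 1.57. Vdr, Msx1 and Atf4 were lower in the members (-2.72, -1.70 and -1.29). The marker Smpd3 stood at 42.2, 7.08, 202 and 65.9 in the members and at 45.8, 554, 229 and 254 on the cartilage side, with overlap, and its difference of -1.43 ± 0.56 did not pass (adjusted p = 0.0839). Ifitm5 (0.56 ± 0.43) and Mef2c (0.09 ± 0.21) did not pass either. Thinned to 3000 UMIs, Smpd3 (-0.95, adjusted p = 0.0244) and Mef2c (0.75, adjusted p = 0.00679) did, and Smpd3 and Ibsp passed with no filter on low counts. Ibsp (2.46 ± 1.93) did not pass with that filter and all 4 libraries but did without tdT- replicate 2 (6.45, adjusted p = 0.0132), the library with most cartilage-side Ibsp. Of 14 bone matrix genes, 5 were higher and 6 lower, among them Col5a2 and Col24a1 higher by 2.68 and 2.69 and Col11a1 and the collagen lysyl hydroxylase Plod2 lower (-2.21 and -2.19).

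Signals also separated the 2 sides. Tnfsf11 stood at 24.6, 17.7, 37.8 and 59.8 CPM against 0, 1.88, 5.84 and 1.11 (4.19 ± 0.54 higher, adjusted p = 0.000339) and Mmp9 was higher by 3.41. In the hedgehog list 6 of 11 genes were higher and 1 lower. The lower one was the ligand Ihh, made by prehypertrophic chondrocytes, at 0.63, 3.54, 3.49 and 7.32 CPM against 45.8, 175, 106 and 185 (-5.01 ± 0.27, adjusted p = 2.58e-06). Its targets Ptch1 and Gli1 were higher by 1.09 and 1.28, Gli1 not without tdT+ replicate 2 or tdT- replicate 2 (adjusted p = 0.0787 and 0.0897). The FGF ligand Fgf18 and the chemokine Cxcl12 were higher by 1.75 and 2.18, while Fgfr3, the BMP antagonist Nog and the BMP target Id1 were lower (-3.32, -3.4 and -2.97). Of 4 hypertrophic genes 3 were lower, among them Col10a1 at -5.39 and Panx3 at -2.16, the latter not with DESeq2 (adjusted p = 0.0777). Of 15 dissociation genes 14 were lower, which differs from the 5 of 15 above, and its part in the other differences was not tested.

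Genes that separated the sides most by the naming rule were, on the connective side, Ppfibp2, Angpt1, Epha3, Thsd7b, Fhod3, Tnfsf11, Zeb2, Alpl, Ano3, Kctd16 and Pdzrn4, with log2 fold changes from 4.52 (Ppfibp2) to 3.97 (Pdzrn4). Angpt1, the angiopoietin ligand, and Epha3, an ephrin receptor, were higher by 4.41 and 4.39, and Zeb2, a transcriptional repressor of mesenchymal cells, by 4.19. On the cartilage side they were Epyc, Akap6, Col10a1, Comp, Snorc, C1qtnf3 and Gm45194, with log2 fold changes from -6.12 (Epyc) to -5.09 (Gm45194). Epyc, Comp and Snorc encode cartilage proteoglycans and matrix proteins. WPRE, an element of the transgenes, was lower in the members (-1.996 ± 0.35, adjusted p = 0.00216), and so was Cdkn1a (-2.05 ± 0.29, adjusted p = 0.00057), at 15.7, 3.54, 25.0 and 23.2 CPM against 60.1, 77.0, 66.4 and 122. The paper states that reads of the p21 transgene fall mostly on WPRE, so Cdkn1a counts can leave most of them out.

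Whether misexpression of p21 in cartilage altered Sp7-positive connective barcodes was asked on 8 sums, 1 for each library and condition, of 3 to 32 barcodes. No gene passed edgeR's test among 7417 tested (0%) with the sorted fraction as covariate, 339 (4.57%) had an unadjusted p under 0.05, 280 (3.78%) had no overlap between the conditions, and DESeq2 called 0. Cdkn1a stood at 27.2, 0, 24 and 35.9 CPM in Pan-Cart-p21MOE and at 13.9, 0, 30.4 and 15.5 in control members, a difference of 0.46 ± 0.52 that did not pass. As Cdkn1a counts can miss most reads of the p21 transgene, this difference says little about p21 misexpression in the members. Alpl (0.39 ± 0.21) and Runx2 (0.17 ± 0.15) did not pass either. Ibsp stood at 3.63, 0, 1608 and 18.0 against 473, 0, 39.1 and 0. Single barcodes held 92.7% of the UMIs behind the 1608 and 100% of those behind the 473. The lowest p-values, none of which passed, belonged to Kcnq3 (3.17), Polg2 (1.90) and Rps21 (0.39) on the higher side and to Ndc80 (-2.10), Pdzrn4 (-1.59) and Ryr3 (-2.51) on the lower side, with adjusted p from 0.629 to 0.805. Kcnq3 passed without the control sum of tdT- replicate 2 (3.77, adjusted p = 0.0271) and with the fractions of a pool added (adjusted p = 0.0489), and all of these but Rps21 passed with no filter on low counts.

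All 18 tested genes of the G2M list were fitted lower in Pan-Cart-p21MOE members, with a median of -1.77 against -0.00066 over all genes, and none passed. Its counts per 1000000 UMIs, in the order of libraries, were 904, 144, 825 and 248 in Pan-Cart-p21MOE and 1808, 6070, 1461 and 2449 in control members. In the tdT- libraries single barcodes made up nearly all of the control sums. One barcode gave 539 of 542 UMIs in tdT- replicate 1 and one gave 457 of 473 in tdT- replicate 2. Counted by barcode, at least 20 G2M UMIs were found in 10 of 66 Pan-Cart-p21MOE members (15.2%) and in 9 of 42 controls (21.4%), with a median of 4 and 5 UMIs per barcode. Top2a and Mki67 stood at -1.76 ± 0.54 and -2.03 ± 0.47 (adjusted p = 0.917 and 0.747). Both passed edgeR's test with no filter on low counts (adjusted p = 1.71e-08 and 2.74e-06). Of 17 S phase genes tested, 15 were fitted higher, with a median of 0.19, and none passed. Of 11 histone genes tested, 0 were fitted higher, with a median of -0.84, and none passed.

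Counted as barcodes with any UMI, the later markers were found in more of the Pan-Cart-p21MOE members. A UMI of Ibsp, Ifitm5 or Smpd3 was present in 7 of 17, 1 of 3, 20 of 32 and 11 of 14 Pan-Cart-p21MOE members of the 4 libraries, or 41.2, 33.3, 62.5 and 78.6%. In control members it was present in 3 of 15, 0 of 3, 6 of 20 and 1 of 4, or 20.0, 0, 30.0 and 25.0%, where the exact 95% interval of 0 of 3 reaches 70.8%. The Pan-Cart-p21MOE share was higher in 4 of 4 libraries and the 2 groups did not overlap, with means of 53.9 ± 20.6% and 18.8 ± 13.1% (SD over 4 sums, which are the tdT+ and tdT- fractions of 2 embryo pools per condition and so not independent). Median depths in the members were 30327, 26994, 28027.5 and 29587 UMIs in Pan-Cart-p21MOE and 36157, 26098, 30607.5 and 39850.5 in control, so the Pan-Cart-p21MOE barcodes were the shallower ones in 3 of 4 libraries. Thinned to 3000 UMIs the shares were 23.5, 33.3, 25.0 and 42.9% against 13.3, 0, 20.0 and 25.0%, where the groups overlapped. In other connective barcodes the shares were 14.48, 17.9, 19.4 and 25.3% against 5.97, 17.4, 13.6 and 30.0%, also with overlap. This measure was chosen after the values had been seen and no test is given, and the part of free RNA in it was not tested. Summed levels, in the same order of libraries, did not all follow the shares. Ifitm5 stood at 19.9, 39.3, 315 and 98.3 per 1000000 UMIs in Pan-Cart-p21MOE and at 81.6, 0, 149 and 41.4 in control members. Smpd3 stood at 48.8, 13.1, 190 and 128 against 68.9, 0, 215 and 10.4. None of the 4 osteoprogenitor markers passed edgeR's test between conditions, and all 4 were fitted higher in Pan-Cart-p21MOE.

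Sp7-positive members of the tdT+ and tdT- fractions were compared to ask whether the Gli1 lineage differed from the other members. With condition as covariate, 1 of 7417 genes passed (0.0135%), 267 (3.6%) had an unadjusted p under 0.05, and DESeq2 called 1. The gene was WPRE, an RNA-stabilizing element that both the tdT and the p21 transgenes can carry, so that its reads do not tell them apart. It stood at 468 and 352 CPM in tdT+ replicate 1 (Pan-Cart-p21MOE and control), 516 and 313 in tdT+ replicate 2, 26.8 and 43.4 in tdT- replicate 1 and 121 and 87.9 in tdT- replicate 2. The fractions did not overlap, which held for 2.99% of all genes tested, and WPRE was higher in tdT+ by 2.32 ± 0.29 (edgeR adjusted p = 0.0121), but not without the control sum of tdT+ replicate 1 or either sum of tdT+ replicate 2 (adjusted p from 0.0507 to 0.104). WPRE did not pass with at least 3 Sp7 UMIs (2.46, edgeR adjusted p = 0.198) or thinned to 3000 UMIs (1.13, edgeR adjusted p = 0.990). It was found in 120 of 124 members, whereas tdt itself had 47 UMIs in 33. The next genes by p, which did not pass, were Stmn2 (2.02) and Jarid2 (0.87) higher and Eef2kmt (-1.08), Zfp503 (-1.33) and Rai14 (-0.85) lower. Ibsp, Ifitm5 and Smpd3 were fitted higher in tdT+, Ibsp at 6.06 ± 1.63, and none passed. Without the Pan-Cart-p21MOE sum of tdT+ replicate 1 Ibsp did (6.94, adjusted p = 0.0311). The fractions came from the same embryo pools, and with the pool as a block 2 genes passed, WPRE and Ibsp (6.61, edgeR adjusted p = 9.11e-06). Of the 1787 Ibsp UMIs of the members, 1364 and 272 lay in single barcodes of tdT+ replicates 2 and 1. Gli1 did not pass, at -0.68.

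**Figure D4:**
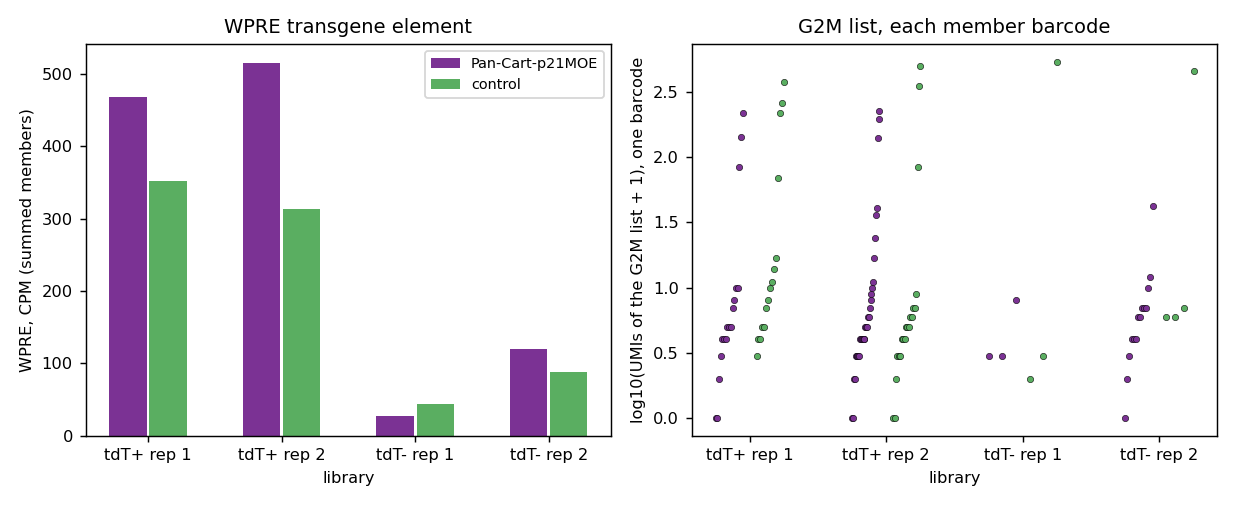
Left, CPM of WPRE in the summed members of each library and condition, with the 4 tdT+ bars between 313 and 516 and the 4 tdT- bars between 26.8 and 121. Right, log10(UMIs of the G2M list + 1) in each sexed member barcode, with the single barcodes of 539 and 457 UMIs standing far above the other control members of tdT- replicates 1 and 2.

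The share of connective barcodes that were Sp7-positive was 10.3% in tdT+ replicate 1 (exact 95% interval 7.49 to 13.7%), 3.21% in tdT- replicate 1 (1.30 to 6.5%), 8.11% in tdT+ replicate 2 (6.15 to 10.4%) and 3.395% in tdT- replicate 2 (2.14 to 5.10%). These intervals cover counting error only. Over the 8 sums of library and condition the share was 9.90 ± 0.73% in tdT+ and 3.98 ± 0.76% in tdT- (SD, n = 4), without overlap (p = 0.0286 by an exact permutation test, two-sided, which is as low as 4 against 4 can go). As both fractions came from the same pools the sums are paired, and the paired exact permutation test gave p = 0.125, as low as 4 pairs allow, with tdT+ higher in 4 of 4. Median depth was higher in tdT+ as well, at 25787 against 21337 UMIs. When every barcode was thinned to 3000 UMIs, which leaves 15 members (10 Pan-Cart-p21MOE and 3 control among them), the shares were 1.13 ± 0.42% and 0.449 ± 0.737%, and the difference did not pass (exact permutation p = 0.143, paired 0.25 with tdT+ higher in 3 of 4). Thinned to 10000 UMIs they were 3.44 ± 1.38% and 2.35 ± 1.04% (exact permutation p = 0.257). Sp7 counts per 1000000 UMIs of all connective barcodes, which need no limit on a barcode, were 18.3 ± 2.6 in tdT+ and 8.99 ± 2.78 in tdT- (n = 4, exact permutation p = 0.0286 unpaired and 0.125 paired). The sort on tdT sets which cells a fraction can hold.

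Between conditions no difference in the share passed the test. The 4 sums of a condition are both fractions of 2 embryo pools, so the p-values over sums are too small. All UMIs considered, it was 7.01 ± 3.19% in Pan-Cart-p21MOE and 6.87 ± 3.77% in control (n = 4, exact permutation p = 0.83). Thinned to 3000 UMIs it was 1.17 ± 0.63% and 0.412 ± 0.501% (exact permutation p = 0.114, paired within libraries 0.125, as low as 4 pairs allow), higher in Pan-Cart-p21MOE in 4 of 4 libraries but with 10 and 3 barcodes counted. With at least 1 Sp7 UMI the thinned difference turned to -0.415 percentage points (exact permutation p = 0.857). Sp7 counts per 1000000 UMIs of connective barcodes were 13.6 ± 4.9 and 13.7 ± 7.0 (exact permutation p = 1).

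**Figure D5:**
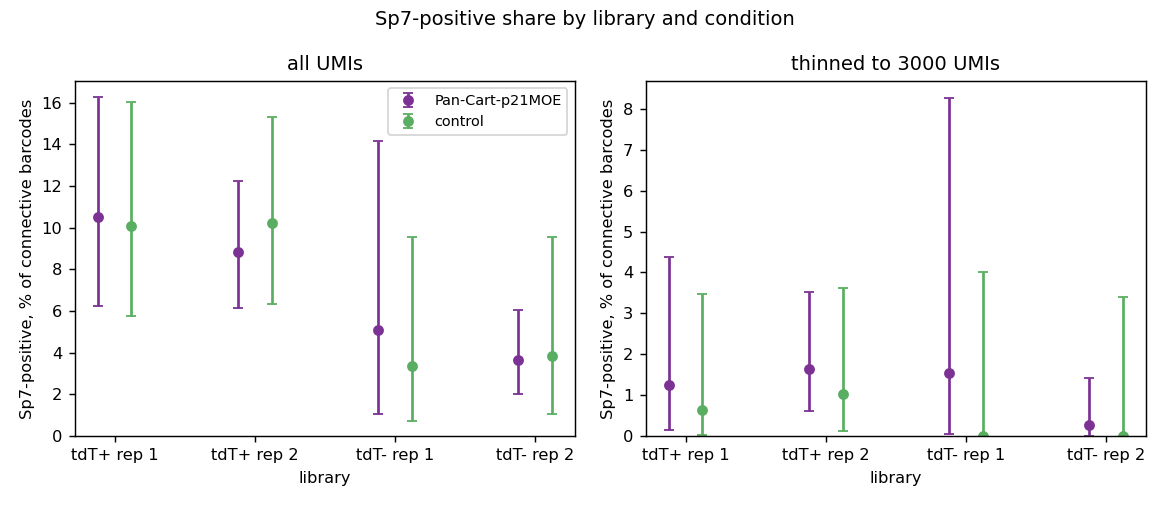
Sp7-positive share of connective barcodes (%, points, with exact 95% binomial intervals) by library and condition, from all UMIs (left) and from barcodes thinned to 3000 UMIs (right). With all UMIs both tdT+ libraries lay between 8.84 and 10.5% and both tdT- libraries between 3.37 and 5.08%, and after thinning all 8 values were at or below 1.63% with overlapping intervals.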

How the data were processed

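Hindlimb cells (femur and tibia) of E14.5 embryos were sorted into tdT+ and tdT- fractions in 2 collections and profiled by 10x 3′ single-cell RNA-seq. The deposited files are filtered matrices of UMI counts that the authors made with Cell Ranger 7.2.0 on GRCm38/mm10 with the transgene sequences tdt, CreERT2 and WPRE added. Their later removal of ambient RNA and doublets is not part of these counts. The libraries held 4072, 2541, 6455 and 5887 barcodes and 20770520, 11945062, 31871634 and 39435830 UMIs (tdT+ and tdT- replicate 1, then tdT+ and tdT- replicate 2). Files were read with Python 3.11.15 (numpy 2.4.6, pandas 2.3.3, scipy 1.17.1) and Scrublet in scanpy 1.11.5 marked 7 of 3640 barcodes, under 0.5%, so that it did not work here and barcodes with both sexes or in the top 5% of its score were left out only as an alternative.

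A barcode was given a sex, and through the pools a condition, from at least 2 UMIs of Xist or of Ddx3y, Eif2s3y, Kdm5d and Uty with 80% on one side. UMI counts were summed per library and group (at least 3 barcodes per sum) and compared with edgeR 4.0.16 (TMM, filterByExpr, quasi-likelihood test, Benjamini-Hochberg adjustment, R 4.3.3), with the library as a block for barcode groups, the fraction as covariate for condition and condition for the fraction. Rule genes (for barcode groups) and sex genes counted toward library sizes but were not tested. CPM are TMM-scaled, whereas counts per 1000000 UMIs are plain sums. DESeq2 1.42.0 was an alternative. The tests were checked on simulated counts with known changes. Fractions of a pool share its embryos and are paired by the design (correlations of deviations from -0.0282 to 0.192), whereas conditions share only the library (-0.0462 to 0.0269) and were not taken as pairs. Shares were compared by two-sided exact permutation of the 8 sums of library and condition after thinning to 3000 UMIs, and confidence intervals are exact binomial (95%). Named genes have an adjusted p under 0.05, one direction in all libraries and at least 100 UMIs, the 12 largest rises and 8 largest falls. Where fewer than 5 passed, those and the 3 lowest p-values in each direction were named. Genes of lists were named as needed, and some genes that the rule named are not reported here. Members and lists were chosen with earlier results of these data known. Of 378 names looked up, 375 matched the GENCODE M21 annotation of GRCm38, which gave the chromosomes. Promoter entries were found for 7 of 11 genes looked up.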

Additional observations from a re-analysis of the deposited data

Results flagged for a closer look

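In 257 groups of 4 sums the highest or lowest value was set against the rest, and in 21 its gap to the nearest of the others exceeded Dixon's limit for 4 values, where chance gives about 5%. Values are CPM with the range of the other 3 libraries in parentheses.

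Among Sp7-positive sums, tdT- replicate 1, with its 7 barcodes, stood low for Dlx3 at 0 (7.83 to 9.39) and Cemip at 3.70 (11.8 to 13.1). In tdT- replicate 2 Kera stood at 1.31 (0 in the others), which is 1 UMI, and the muscle actin Actc1 at 7.83 (0 to 0.671). Split by condition, Ibsp reached 1608 in Pan-Cart-p21MOE members of tdT+ replicate 2 (0 to 18.0) and 473 in control members of tdT+ replicate 1 (0 to 39.1), in each case mostly or wholly through 1 barcode. The proliferation marker Mki67 reached 321 in the 4 control members of tdT- replicate 2 (73.9 to 97.7), where 1 barcode held most G2M UMIs.

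Among other connective sums, tdT- replicate 2 stood high for the tendon gene Tnmd at 141 (49.0 to 54.2), Actc1 at 136 (2.66 to 22.8), Acta2 at 89.0 (12.2 to 23.9), Boc at 81.0 (71.0 to 72.6) and Brinp1 at 12.3 (3.02 to 4.52). In tdT+ replicate 2 Tgfb2 stood low at 129 (164 to 166) and Ppargc1a high at 10.4 (7.37 to 7.71). Tnfsf11 was high at 13.0 in tdT+ replicate 1 (5.60 to 5.87) and Lcp2 at 6.91 in tdT- replicate 1 (0.496 to 1.46).

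Among cartilage-side Sp7-positive sums, tdT- replicate 2 stood high for Col10a1 at 258 (1.58 to 22.5) and Ibsp at 194 (1.46 to 13.1). In tdT+ replicate 2 Ptch1 stood at 198 (163 to 166), Mmp9 at 12.4 (1.58 to 1.94) and Ano3 at 4.38 (0 to 0.554).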

How the results depend on the processing

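Against other connective barcodes, 1616 genes were called with no filter on low counts (in place of 1008), 635 with at least 3 Sp7 UMIs per member and 325 after thinning to 3000 UMIs, where fewer genes were tested. Leaving out each library gave 376 (without tdT+ replicate 2) to 1147 (without tdT- replicate 1). Against cartilage-side barcodes, 1593 genes were called with at least 3 Sp7 UMIs and 390 after thinning (2870 in the report), and leaving out each library gave 1557 (without tdT- replicate 2) to 2558. DESeq2 called 793 and 2074. Of the genes named in these 2 comparisons, 43 of 77 and 41 of 45 called genes passed under every alternative that gave a value, and none of these called genes changed direction. With at least 3 Sp7 UMIs 12 no longer passed in the first (Ank, Atf4, Bgn, Col5a1, Igf2, Lcp2, Osr2, Prrx1, Spp1, Tnmd, Tnn and Wif1), with DESeq2 6 (Atf4, Ibsp, Panx3, Spp1, Tnmd and Tnn) and without the library block 7 (Acta2, Actc1, Myog, Osr2, Postn, Spp1 and Tnmd). Thinned to 3000 UMIs, 19 no longer passed in the first (among them Tnfsf11, Smad6, Serpinh1, Igf2, Thbs2 and Actc1) and Panx3 in the second. Differences that were not called did change sign, those of Col2a1, tdt and Cdkn1a in the first and of Mef2c, Ifitm5 and Ibsp in the second. Without tdT- replicate 2, 11 no longer passed in the first (Atf4, Bgn, Boc, Brinp1, Col5a1, Crtap, Pdgfra, Spp1, Tnmd, Tnn and Wif1) and 3 in the second (Ano3, Gli1 and Msx1).

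Between conditions 79 genes were called with no filter on low counts (among them Kcnq3, Polg2, Ndc80, Pdzrn4, Ryr3, Top2a, Mki67 and Ibsp) and 1 with the fractions of a pool added (Kcnq3), and leaving out a sum gave 0 to 3, with 3 without the control sum of tdT- replicate 2. Between fractions 26 were called with no filter (among them Stmn2, Ibsp, Ifitm5 and Smpd3), 2 with sums per library, and 0 with at least 3 Sp7 UMIs or after thinning, and leaving out a sum gave 0 to 3. With library as a replicate block 0 genes were called between conditions, with the embryo pool as a block 2 between fractions (WPRE and Ibsp), and without the library block 910 against other connective and 3031 against cartilage-side barcodes. The interaction of condition and fraction called 0 of 8096 genes (360 at an unadjusted p under 0.05) by edgeR, the one tool run for it.

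The Pan-Cart-p21MOE share of Sp7-positive barcodes minus the control share was 0.754 percentage points thinned and turned to -0.415 with at least 1 Sp7 UMI (exact permutation p = 0.857). Leaving out a sum gave 0.598 to 1.06. The tdT+ share minus the tdT- share was 0.681 thinned, 5.92 with all UMIs and 5.75 with all UMIs and doublet candidates left out (unpaired exact permutation p = 0.0286 in both), and leaving out a sum gave 0.512 to 1.04. Paired by number as a replicate block, the thinned differences gave exact permutation p-values of 0.125 (as low as 4 pairs allow) and 0.25. Thinning to 10000 UMIs, the Sp7 counts per 1000000 UMIs and the unthinned shares without doublet candidates were added after the data were seen. The cause of these shifts was not tested. The thinned shares rest on 10 Pan-Cart-p21MOE and 3 control barcodes.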

Other observations

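Below the depth limit, 3233 barcodes had at least 1000 but fewer than 3000 UMIs and at most 10% mitochondrial UMIs. Of these, 3 had at least 2 Sp7 UMIs and all 3 lay on the collagen side.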
